A study of Mus musculus with 10 samples.

Results

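The anaphase-promoting complex (APC/C), a pair of its ubiquitin-conjugating E2 enzymes, securin and separase were examined through 10 listed genes: Anapc1, Anapc2, Anapc5, Cdc16, Cdc27, Fzr1, Ube2c, Ube2s, Pttg1 and Espl1. All 10 were found among the 22180 genes with a probe set that carries a single symbol, and each was measured by 1 probe set. The measurements were made in MEFs, primary fibroblasts of mouse embryos, which were taken from the back skin of embryos at embryonic day 13.5. One group was labelled Zbtb4 knock-out (5 arrays) and the other wild type (5 arrays), and total RNA of each sample was hybridised to a one-colour Affymetrix array. Zbtb4 codes for a zinc finger factor with affinity for methylated CpG, and the stated purpose was to find transcripts that depend on it. The labels do not describe the deleted part of Zbtb4, the strain or sex of the embryos, the passage of the cultures, or whether the 5 samples of a genotype stem from different embryos, and p-values therefore reflect only the spread among these samples. The mean log2 level of 3 Y-linked genes was at least 5.89 on arrays 1 and 3 and at most 2.78 on arrays 2, 4 and 5 of both genotypes, so each genotype holds material of more than 1 embryo; whether arrays of a like Y-linked level are technical repeats is not known.

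The APC/C is a ubiquitin ligase that marks mitotic proteins for destruction by the proteasome. Once all chromosomes are attached to the spindle, Cdc20 activates it, and it marks securin and cyclin B. Loss of securin frees separase, a protease that cuts the cohesin ring and lets sister chromatids part. After anaphase the coactivator Cdh1, encoded by Fzr1, takes over from Cdc20 and keeps the complex active through G1. In proliferating cells such as cultured fibroblasts, transcripts of Ube2c, Pttg1 and Espl1 rise towards mitosis, whereas those of most core subunits are made throughout the cycle.

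Zbtb4 was measured at log2 values of 5.44, 5.76, 5.04, 5.62 and 5.39 on knock-out arrays 1 to 5 and 6.06, 6.03, 5.94, 6.23 and 6.11 on wild-type arrays 1 to 5. All knock-out arrays lay below all wild-type arrays, with a difference of -0.62 (SE 0.12; limma adjusted p = 0.628). The arrays had medians from 3.89 to 3.93 over all probe sets, and any pair correlated with r from 0.989 to 0.994 across genes, which are not independent replicates. Fibroblast markers (10 of 10 measured) had mean log2 levels from 8.67 to 8.97 on knock-out and 8.66 to 9.10 on wild-type arrays. Markers of leukocytes (10 of 10 measured) lay between 4.14 and 5.61 on knock-out and 4.46 and 4.86 on wild-type arrays, those of endothelium between 3.64 and 3.84 and between 3.52 and 3.85, and those of epithelium (9 of 10 measured) between 3.85 and 4.13 and between 3.83 and 3.97. Skeletal muscle markers lay between 5.27 and 5.73 on knock-out and between 5.07 and 5.63 on wild-type arrays.

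Beside the 10 genes, markers of other cells also differed in their means. Of the leukocyte markers 9 of 10 had a higher mean in the knock-out, with a median log2 difference of 0.20. The knock-out arrays were uneven in these markers. Their mean level was highest on knock-out array 3 (5.61) and lowest on knock-out array 5 (4.14), against 4.46 to 4.86 on wild-type arrays. The count without knock-out array 3 was not computed. Of the endothelial markers 7 of 10 had a higher mean in the knock-out, with a median of 0.12. Over all genes, 49.3% had a lower mean. Cdh5, the gene of VE-cadherin at endothelial junctions, had the largest difference of the endothelial markers, 0.61 (limma adjusted p = 0.628). Its arrays did not overlap, which held for 0.987% of all genes in either direction. Its means, 3.56 on knock-out and 2.95 on wild-type arrays, lay below the 4.32 of the median gene. Over all arrays, 8 of the 10 endothelial markers had a mean below that of the median gene. A lower mean in the knock-out was found for 3 of the 10 endothelial markers. The medians were 0.062 for skeletal muscle (7 of 10 higher), 0.020 for epithelium (5 of 9 higher) and -0.045 for fibroblast markers (3 of 10 higher). Single genes ran from -0.17 to 0.66 for skeletal muscle, from -0.094 to 0.28 for epithelium and from -0.35 to 0.072 for fibroblast markers. No marker passed in limma, and the part of these cells in the differences of the 10 genes was not tested.

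None of the 10 genes passed the threshold of an adjusted p under 0.05, and over all genes the share that passed in limma was 0%. Their mean was lower in knock-out cells for 9 genes and higher for 1, against 49.3% of all genes with a lower mean. The median log2 difference, knock-out minus wild type, was -0.14 over the 10 genes and 0.0020 over all genes. All 10 remained when the dimmest 40% of genes were left out. Of the 13308 genes then tested, 7249 had a lower mean, and their median was -0.012. Unadjusted p-values under 0.05 with a lower mean were found for 2 of the 10, Ube2s and Anapc1, where 2.73% of all genes had one. With a higher mean there were 0 of the 10, against 3.25% of all genes. In no case did the arrays of the genotypes separate without overlap, which they did for 0.987% of all genes. The limma adjusted p-values ran from 0.821 to 0.996. In these bulk cultures, fewer dividing cells and less RNA of a gene per dividing cell cannot be told apart.

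**Figure D1:**
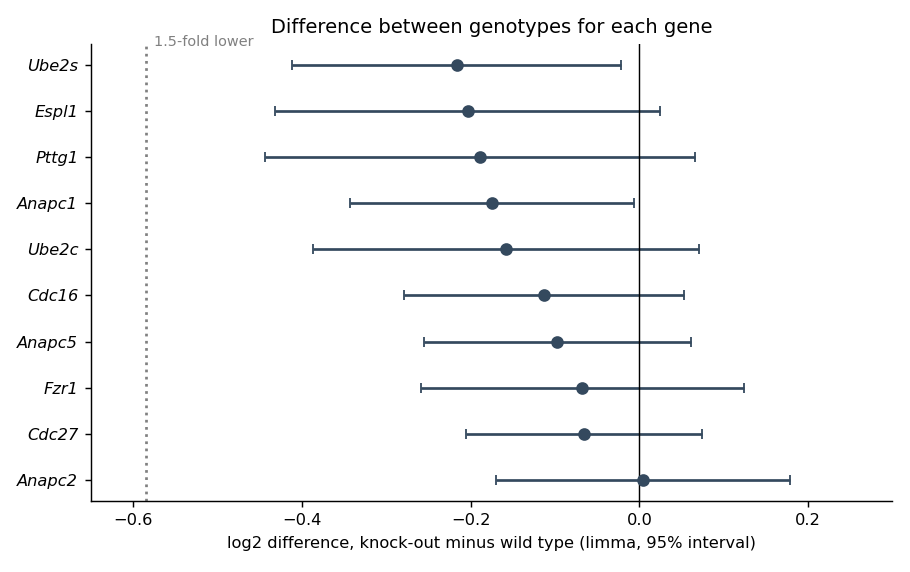
Log2 difference between knock-out and wild-type cells for each of the 10 genes, with its 95% interval from limma (5 arrays per genotype); the dotted line marks a level 1.5-fold lower. All 10 intervals lie above that line, and 8 of them include 0.

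In array units, all 10 intervals lay above a level 1.5-fold lower in knock-out cells. The lowest bound was that of Pttg1, at -0.44 on the log2 scale, or 1.36-fold lower. Each interval is for a single gene, is not joint over the 10, and reflects only the spread among these samples. Zbtb4 itself read only 1.54-fold lower in knock-out cells, with an interval reaching 1.84-fold lower. Whether array folds equal folds of RNA was not tested, so these intervals do not bound the difference in RNA.

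Anapc1 encodes the largest scaffold subunit, on which the other parts of the complex are mounted. Its log2 values were 7.94, 7.78, 7.79, 7.67 and 7.70 on knock-out arrays 1 to 5 and 7.92, 7.99, 7.99, 8.04 and 7.81 on wild-type arrays 1 to 5. Apart from array 1, every knock-out array lay below every wild-type array, and wild-type array 5 was the lowest of its genotype. The means were 7.78 ± 0.11 (SD, n = 5) and 7.95 ± 0.088 (SD, n = 5), a difference of -0.17 with a 95% interval from -0.34 to -0.0066. By the exact permutation test, two-sided, p was 0.0317 before adjustment and 0.821 after adjustment over all genes, and limma gave an adjusted p of 0.830.

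Anapc5 encodes a further scaffold subunit that helps to hold the catalytic part. Knock-out arrays 1 to 5 read 10.14, 9.90, 9.86, 9.96 and 9.98, and wild-type arrays 1 to 5 read 10.09, 10.08, 10.11, 10.05 and 10.002. Knock-out array 1 was the highest of all 10, and the other 4 knock-out arrays were the lowest of all. The difference was -0.097 (SE 0.073; limma adjusted p = 0.858; exact permutation p = 0.103), and without knock-out array 1 it was -0.14.

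Anapc2 encodes the cullin of the catalytic core, which together with Anapc11 brings the E2 enzyme to the substrate. It was at 6.87, 6.94, 6.70, 6.85 and 7.03 on knock-out arrays 1 to 5 and at 6.87, 6.72, 6.91, 6.96 and 6.89 on wild-type arrays 1 to 5. The genotypes covered nearly the same range, and both the highest and the lowest array were knock-out arrays. The difference was 0.0046 with a 95% interval from -0.17 to 0.18 (limma adjusted p = 0.996). Its sign is not settled, since it was -0.0081 once each array was centred on its median and lay between -0.033 and 0.050 when any 1 array was dropped.

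Cdc16 and Cdc27 encode subunits of the arm built of tetratricopeptide repeats, where the coactivators dock. Cdc16 was at 8.06, 7.82, 7.77, 7.91 and 7.88 on knock-out arrays 1 to 5 and at 8.03, 8.09, 8.01, 7.89 and 7.98 on wild-type arrays 1 to 5. Knock-out array 1 sat among the wild-type arrays, and knock-out array 3 was the lowest. The difference was -0.11 (SE 0.077; limma adjusted p = 0.852).

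Cdc27 varied little. Its values on knock-out arrays 1 to 5 were 8.80, 8.68, 8.68, 8.72 and 8.73, and on wild-type arrays 1 to 5 they were 8.82, 8.82, 8.76, 8.75 and 8.79. All knock-out arrays but array 1 lay below all wild-type arrays, although the difference was only -0.066 (SE 0.065; limma adjusted p = 0.891; exact permutation p = 0.0476, adjusted over all genes 0.821). The spread between arrays within a genotype was 0.045 for Cdc27. Of 832 genes whose mean lay within 0.5 of its own, only 1.56% varied less, and their median was 0.11. Limma draws such a small variance towards that of other genes, which widens its interval.

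Fzr1 encodes Cdh1, the coactivator of late mitosis and G1. Knock-out arrays 1 to 5 read 7.31, 7.12, 7.13, 6.96 and 7.12, and wild-type arrays 1 to 5 read 7.23, 7.25, 7.37, 7.002 and 7.14. Array 4 was the lowest in both genotypes, and the ranges overlapped almost fully. The difference was -0.068 (SE 0.089; limma adjusted p = 0.923), running from -0.12 without wild-type array 4 to -0.025 without wild-type array 3.

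**Figure D2:**
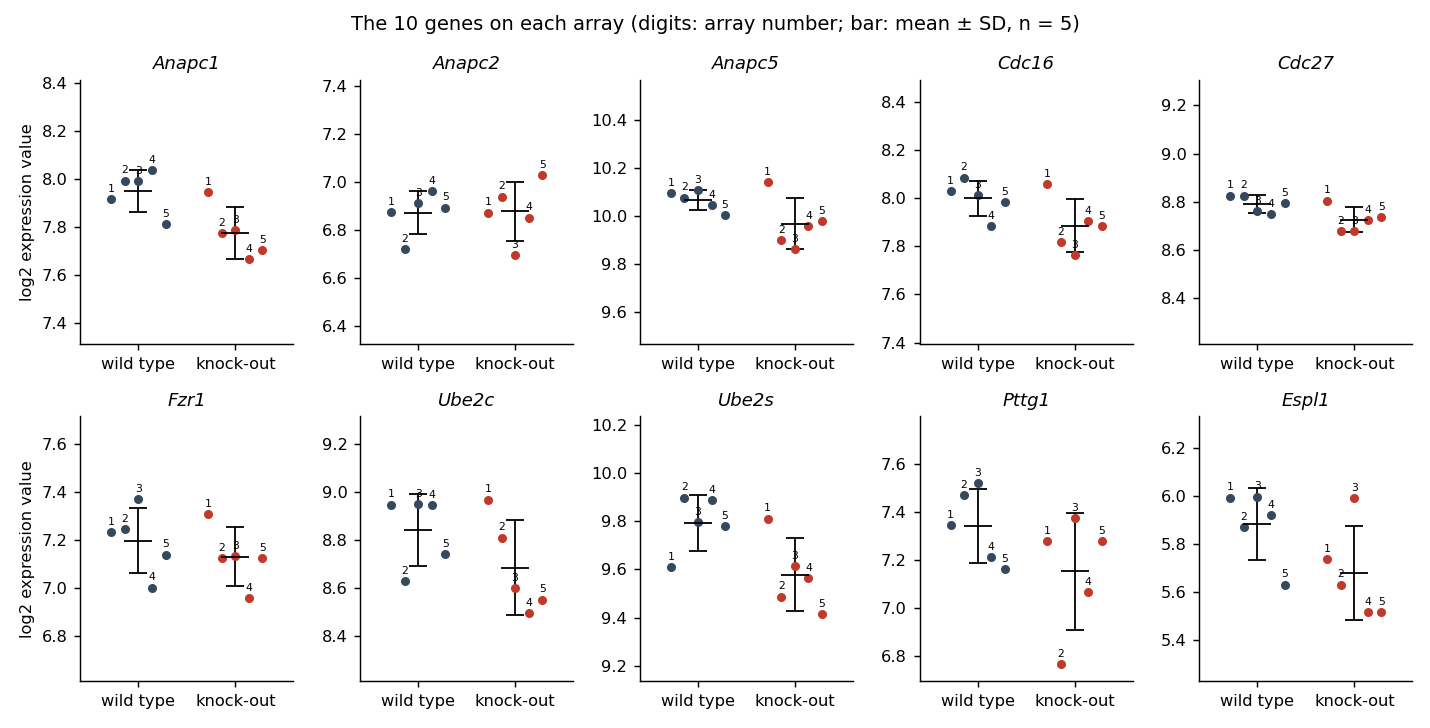
Log2 expression value of each of the 10 genes on the 5 wild-type and 5 knock-out arrays, with digits for the array number and bars for the mean ± SD; every panel spans the same number of log2 units. Knock-out array 1 is the highest knock-out array for 7 of the 10 genes, and the genotypes overlap in all of them.

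The E2 enzymes act in turn. Ube2c places the first ubiquitins on a substrate, and Ube2s extends them into chains that the proteasome recognises. Ube2c was at 8.97, 8.81, 8.60, 8.50 and 8.55 on knock-out arrays 1 to 5 and at 8.95, 8.63, 8.95, 8.95 and 8.74 on wild-type arrays 1 to 5. Knock-out array 1 was the highest of all, and knock-out arrays 3, 4 and 5 lay below every wild-type array. The means of 8.68 ± 0.20 and 8.84 ± 0.15 (SD, n = 5 each) differed by -0.16 (SE 0.11; limma adjusted p = 0.848), from -0.23 without knock-out array 1 to -0.11 without knock-out array 4.

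Ube2s had the largest difference in means of the 10 genes. It was at 9.81, 9.49, 9.61, 9.56 and 9.41 on knock-out arrays 1 to 5 and at 9.61, 9.90, 9.80, 9.89 and 9.78 on wild-type arrays 1 to 5. Array 1 broke the pattern in both genotypes, being the highest of the knock-out and the lowest of the wild-type arrays. The means were 9.58 ± 0.15 and 9.79 ± 0.12 (SD, n = 5 each), a difference of -0.22, or 1.16-fold lower, with a 95% interval from -0.41 to -0.022. The exact permutation test gave p = 0.0556 (adjusted over all genes 0.824) and limma an adjusted p of 0.821.

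Promoters of some of these genes are shown because Zbtb4 binds methylated CpG sites. Those of Cdc16, Cdc27 and Anapc5, the genes that varied together most closely between arrays, are not among those printed. Whether genes with a like promoter vary together was not tested. The sequences are from RefSeq (GRCm38.p6), and the whole windows end with the base before the annotated start. Shown whole are the 3 windows of 250 bases that overlap no annotated gene, those of Ube2c, Ube2s and Fzr1. A short stretch of Espl1 follows, from 47 to 19 bases before the start used for its window. It was chosen because it holds CCAAT and TTTGAA matches, and the Espl1 window overlaps the annotated Espl1 gene. Capitals mark CCAAT on either strand (ATTGG on the other) and the cell cycle homology region, searched as TTTGAA and TTCGAA on either strand (TTTGAA reads TTCAAA on the other), an element known from genes that peak in G2 and mitosis.
Ube2c, chr2:164769679-164769928, plus strand: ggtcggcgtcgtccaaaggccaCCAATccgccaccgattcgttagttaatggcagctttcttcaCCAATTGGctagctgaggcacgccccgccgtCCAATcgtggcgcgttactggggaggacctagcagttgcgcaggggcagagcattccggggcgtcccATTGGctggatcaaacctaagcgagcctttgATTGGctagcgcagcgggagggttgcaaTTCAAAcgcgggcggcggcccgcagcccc
Ube2s, chr7:4812341-4812590, minus strand: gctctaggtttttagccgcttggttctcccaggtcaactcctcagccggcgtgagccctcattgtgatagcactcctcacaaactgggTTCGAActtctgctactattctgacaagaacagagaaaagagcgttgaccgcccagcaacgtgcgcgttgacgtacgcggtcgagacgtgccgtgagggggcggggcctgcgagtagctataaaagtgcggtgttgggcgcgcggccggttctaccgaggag
Fzr1, chr10:81378371-81378620, minus strand: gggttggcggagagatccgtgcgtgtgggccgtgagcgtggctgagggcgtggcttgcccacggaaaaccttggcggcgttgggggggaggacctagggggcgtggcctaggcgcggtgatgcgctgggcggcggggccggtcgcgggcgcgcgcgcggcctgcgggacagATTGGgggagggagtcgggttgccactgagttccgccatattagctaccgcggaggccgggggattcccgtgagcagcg
Espl1, chr15:102296246-102296274, plus strand: ctgATTGGtcactagggataTTTGAAagg

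The Ube2c window held 6 CCAAT matches, of which 2 overlap in the palindrome CCAATTGG, and TTTGAA on the other strand beginning 29 bases before the start. In Espl1, CCAAT began 44 and TTTGAA 27 bases before the start. The Ube2s window held TTCGAA, which reads the same on both strands, 162 bases before the start, and Fzr1 a single CCAAT at 79 bases. Over windows from 250 bases before to 50 after the start, TTTGAA was present in 2 of the 10 genes and in 17.9% of 32851 RefSeq windows, TTCGAA in 1 and in 1.56%, and CCAAT in 5 (Anapc5, Cdc27, Fzr1, Ube2c and Espl1) and in 37.4%.

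Sequences linked to Zbtb4 and its relative Kaiso were sought in the same windows. The Kaiso sequence TCCTGCNA, searched on both strands, was found in Pttg1 alone, 17 bases into the transcribed part, and in 4.96% of all windows. TGCCATC and CGCCATC, reported for Zbtb4, were found in 0 of the 10 genes and in 3.43% and 3.49% of all windows. The E2F letters TTTGGCGC and TTTCCCGC were also found in 0, against 0.514% and 1.07% of all windows. In 10 windows, counts of 0 or 1 cannot be told apart from these shares. CpG dinucleotides numbered from 14 in Anapc1 to 40 in Fzr1 per window of 300 bases, above the median of 7 over all windows in all 10 genes. The upper quartile over all windows was 20, which Anapc1 and Anapc5 (15) did not reach. Methylation was not measured, and a match describes the letters only.

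Pttg1 encodes securin, the inhibitor and chaperone of separase and a substrate of the APC/C. Its log2 values were 7.28, 6.77, 7.37, 7.06 and 7.28 on knock-out arrays 1 to 5 and 7.34, 7.47, 7.52, 7.21 and 7.16 on wild-type arrays 1 to 5. Knock-out array 2 stood lowest, 3 knock-out arrays lay within the wild-type range, and knock-out arrays 2 and 4 lay below it. The means were 7.15 ± 0.24 and 7.34 ± 0.16 (SD, n = 5 each), a difference of -0.19 (SE 0.12; limma adjusted p = 0.842; exact permutation p = 0.175). Without knock-out array 2 the difference was -0.093, and without knock-out array 3 it was -0.24.

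Espl1 encodes separase, which cuts cohesin at anaphase. Knock-out arrays 1 to 5 read 5.74, 5.63, 5.99, 5.52 and 5.52, and wild-type arrays 1 to 5 read 5.99, 5.87, 5.998, 5.92 and 5.63. Knock-out array 3 was close to the highest wild-type arrays, while wild-type array 5 was as low as knock-out array 2. The difference was -0.20 (SE 0.11; limma adjusted p = 0.839; exact permutation p = 0.111), from -0.28 without knock-out array 3 to -0.16 without knock-out array 4.

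The E2 enzymes, securin and separase varied more between arrays than the core subunits. Within a genotype, the SD was 0.13 to 0.20 for these 4 genes and 0.045 to 0.11 for the 5 core subunits. The median difference was -0.20 over the former and -0.097 over the latter, and this contrast was not tested. Against genes with a mean within 0.5 of their own, the SD of Pttg1 was above 85.6% of them, that of Ube2c above 83.2%, that of Ube2s above 76.1% and that of Espl1 above 55.3%, whereas that of Anapc1 was above 27.7% and that of Cdc16 above 26.0%.

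The arrays did not deviate alike. Wild-type array 3 was above the 10-array mean for all 10 genes and knock-out array 4 for 0 of them. Knock-out array 1 was above it for 8 genes, as many as wild-type arrays 1 and 2. Wild-type array 5, above it for 4 genes, was the lowest wild-type array for 4. Without knock-out array 1 the median difference over the 10 genes was -0.19, and 3 genes had an unadjusted p under 0.05. Without knock-out array 2 the median was -0.094 and 0 genes had one.

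**Figure D3:**
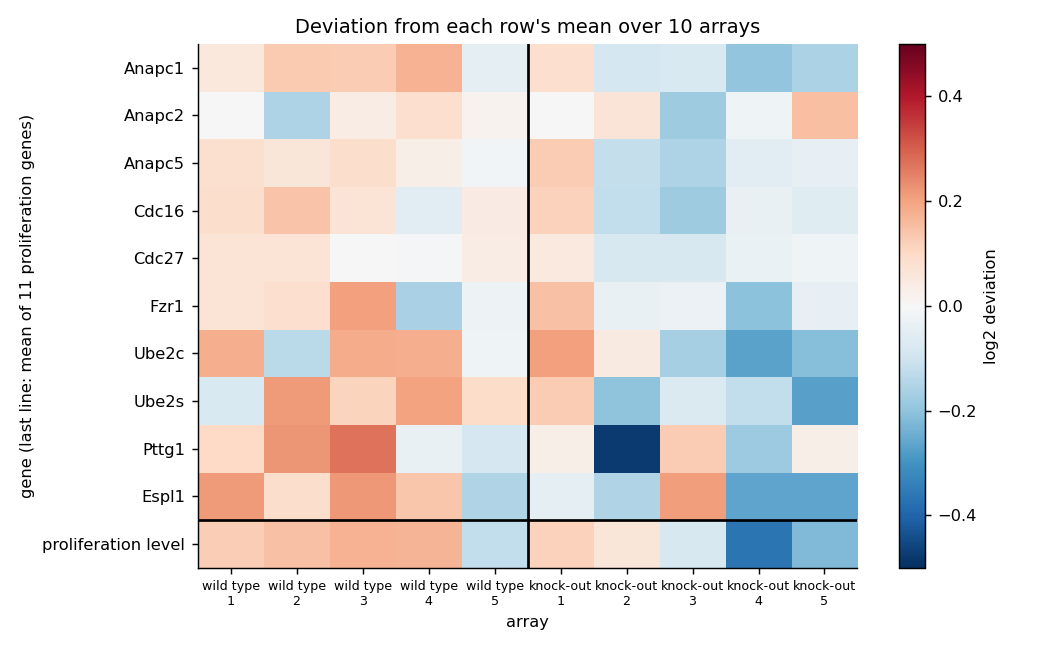
Deviation of each gene on each array from that gene's mean over 10 arrays, in log2 units, with the mean level of 11 proliferation genes in the last line. Knock-out array 4 is below the mean in every line, and knock-out array 1 is above it for 8 of the 10 genes.

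A list of genes of replication and mitosis that holds none of the 10 served as a measure of proliferation. Its mean log2 level was 7.65, 7.59, 7.45, 7.17 and 7.31 on knock-out arrays 1 to 5 and 7.65, 7.68, 7.71, 7.70 and 7.41 on wild-type arrays 1 to 5. The lowest levels were those of knock-out arrays 4 and 5 and of wild-type array 5. With genotype means removed, Anapc1 followed this level most closely over the 10 arrays (r = 0.88), followed by Ube2c (0.76), Espl1 (0.61) and Fzr1 (0.57). It was 0.40 for Ube2s, 0.39 for Anapc5, 0.16 for Cdc16, 0.10 for Pttg1, 0.072 for Cdc27 and -0.056 for Anapc2. Without knock-out arrays 4 and 5, the farthest from the median level, r was 0.84 for Anapc1, 0.62 for Anapc5, 0.59 for Ube2c, 0.35 for Cdc16 and 0.33 for both Espl1 and Fzr1. It was then 0.27 for Anapc2, 0.25 for Ube2s, 0.19 for Cdc27 and 0.15 for Pttg1, so that the order of the genes below Anapc1 rests on those arrays. These correlations describe 10 arrays with similar medians, whose normalisation is not described, and no p is given.

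With the proliferation level as a covariate in the limma fit, the differences between genotypes came to -0.073 for Anapc1, -0.0015 for Ube2c, -0.077 for Espl1 and 0.020 for Fzr1. Those of Ube2s and Pttg1 came to -0.15 and -0.17, and that of Cdc27 was -0.062. The median over the 10 genes was -0.067, and 0 had an unadjusted p under 0.05. Since the proliferation genes also had lower means on the knock-out arrays, the part of a difference that goes with them and the part that goes with the genotype cannot be told apart in this fit.

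Cdc16, Cdc27 and Anapc5 varied together. With genotype means removed, Pearson r over the 10 arrays was 0.92 for Cdc16 with Cdc27, 0.86 for Anapc5 with Cdc16 and 0.78 for Anapc5 with Cdc27. It was 0.93, 0.86 and 0.79 without knock-out arrays 4 and 5. Knock-out array 1 was the highest knock-out array for each of these genes. How far r rests on array 1 was not tested, since r was not computed without it. Among 11089 other genes with a mean above that of the median gene, Cdc27 ranked 16 for likeness to Cdc16, and Cdc16 ranked 9 for likeness to Cdc27. Anapc5 ranked 84 for likeness to Cdc16 and 198 for likeness to Cdc27. Such values were not particular to the complex. Of the 11089 genes, 229 had an r above 0.8 with Cdc16, 182 with Anapc5 and 154 with Cdc27. Anapc1 had an r of 0.71 with Ube2s, 0.66 with Ube2c, 0.59 with Espl1 and 0.58 with Anapc5, and without knock-out arrays 4 and 5 these were 0.70, 0.48, 0.36 and 0.72. Pttg1 had an r of 0.52 with both Fzr1 and Espl1. Anapc2 ran against Espl1 (-0.49), Pttg1 (-0.40) and Ube2s (-0.39). Of the 45 pairs, 35 had a positive r, with a median of 0.32.

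**Figure D4:**
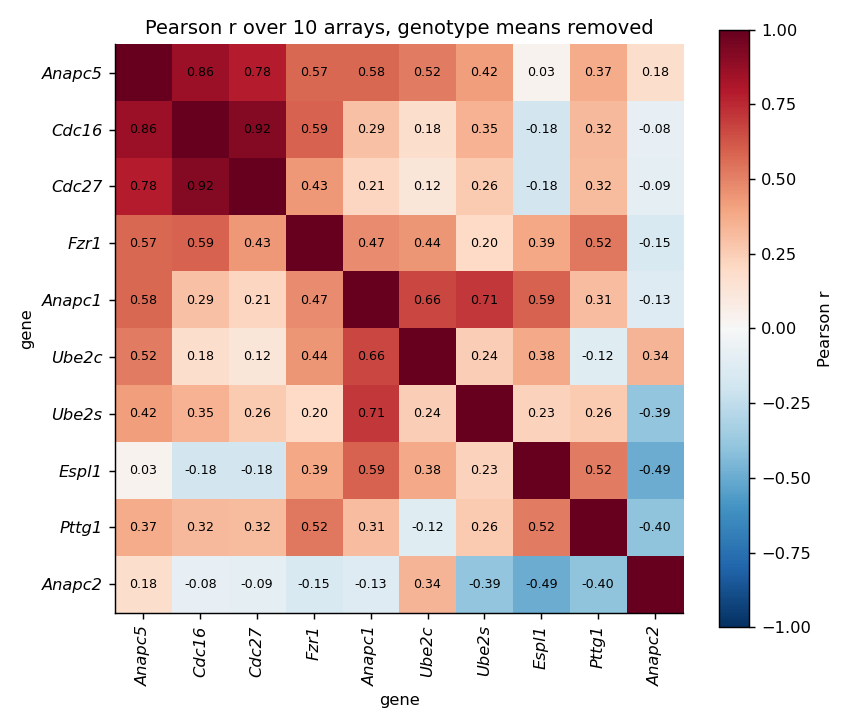
Pearson r between the log2 values of each pair of the 10 genes over 10 arrays, after each genotype's mean was subtracted. Anapc5, Cdc16 and Cdc27 form a block with r from 0.78 to 0.92, and Anapc2 has negative values with 7 of the other genes.

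Genes outside the 10 with the most similar pattern were sought by the same measure among the 11089 genes, where the highest of so many values is large by selection. Anapc1 was most like Mcmbp, which binds the replicative helicase (r = 0.98), the nuclear pore gene Nup160 (0.96) and the kinetochore gene Kntc1 (0.96). Ube2c was most like Wnt5a (0.97), Acap2 (0.96) and Eya3 (0.93), and Ube2s like Papolg (0.97), Zfp93 (0.95) and Reep4 (0.94). Fzr1 was most like Mphosph9 (0.97), Pttg1 like Thumpd1 (0.94) and Espl1 like Pramel12 (0.94). Cdc27 was most like Gli2, a transcription factor of the hedgehog pathway (0.96), and Cdc16 like Maged1 (0.95), which was also among the 3 most like Cdc27 (0.93). Anapc5 was most like Ahcyl1 (0.97) and Anapc2 like the ribosomal protein gene Rpl28 (0.93). For none of the 10 was another of the 10 among its 3 most similar genes.

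The other subunits of the complex did not lean to one side. Of 9 measured, 5 means were lower and 4 higher in the knock-out, the median difference was -0.0073, and 0 genes passed in limma or had an unadjusted p under 0.05. Anapc4, a scaffold subunit, averaged 7.76 ± 0.047 on knock-out and 7.89 ± 0.12 on wild-type arrays (SD, n = 5 each) and differed by -0.13 (limma adjusted p = 0.842). Anapc13, a small subunit that steadies the repeat arm, differed by 0.097 (adjusted p = 0.854 by limma), and Anapc15, needed to turn over the checkpoint complex, by -0.15 (0.888). Anapc15 came to -0.00067 with the proliferation level as a covariate, to -0.060 without wild-type array 3 and to -0.25 without knock-out array 1.

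Activators, inhibitors and further E2 enzymes had lower means for 11 of 14 genes, against 49.3% of all genes, with a median of -0.092. In limma 0 passed. An unadjusted p under 0.05 with a lower mean was found for 1, Usp44, against 2.73% of all genes. Cdc20, the activator of metaphase, was at 8.80, 8.40, 8.36, 8.16 and 8.39 on knock-out arrays 1 to 5 and at 8.56, 8.57, 8.60, 8.61 and 8.32 on wild-type arrays 1 to 5. Knock-out array 1 was above every other array, and the difference was -0.11 (SE 0.11; limma adjusted p = 0.894), or 0.077 with the proliferation level as a covariate. It ran from -0.20 without knock-out array 1 to -0.044 without knock-out array 4. Mad2l1, the checkpoint protein that holds Cdc20 inactive, differed by -0.20 (limma adjusted p = 0.848), or 0.053 with that covariate, and ran from -0.31 to -0.12 without the same arrays. Fbxo5, which encodes the APC/C inhibitor Emi1, differed by -0.26, Trip13, which disassembles the checkpoint complex, by -0.18 (limma adjusted p = 0.830 for both), and the deubiquitinase gene Usp44, with a mean of 2.37 on knock-out and 2.61 on wild-type arrays, by -0.24 (0.821). With the proliferation covariate these came to -0.047 for Fbxo5, -0.17 for Trip13 and -0.22 for Usp44.

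Substrates of the APC/C had lower means for 23 of 24 genes, against 49.3% of all genes, with a median of -0.15. In limma 0 passed. An unadjusted p under 0.05 with a lower mean was found for 6, against 2.73% of all genes. The kinase gene Aurkb averaged 6.90 ± 0.18 on knock-out and 7.21 ± 0.17 on wild-type arrays (SD, n = 5 each), differing by -0.31. The chromosome-arm kinesin gene Kif22 differed by -0.26 and the spindle assembly factor gene Tpx2 by -0.25, each with a limma adjusted p of 0.821. With the proliferation covariate Aurkb differed by -0.18, Kif22 by -0.14 and Tpx2 by -0.088. The 11 measured proliferation genes all had lower means, with a median of -0.20; the mitotic kinesin gene Kif23 differed by -0.31, its partner Racgap1 by -0.27 and Mcm5, for a subunit of the replicative helicase, by -0.28, with limma adjusted p-values of 0.821 to 0.830. Many of these genes are made in the same phases of the cycle, so their counts are not independent of one another. Without knock-out array 4, the lowest in proliferation level, Aurkb differed by -0.24 and Kif23 by -0.25.

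Cohesin is the ring that separase opens. Of 14 genes for its subunits and regulators, 13 had a lower mean, against 49.3% of all genes, with a median of -0.062. In limma 0 passed or had an unadjusted p under 0.05. The subunit gene Stag2 averaged 6.36 ± 0.068 on knock-out and 6.49 ± 0.047 on wild-type arrays (SD, n = 5 each) and differed by -0.13 (limma adjusted p = 0.839). The loader gene Mau2 differed by -0.14, and the acetyltransferase gene Esco1, the only member with a higher mean, by 0.20 (limma adjusted p = 0.842 for both). Esco1 came to 0.12 without knock-out array 2 and to 0.31 with the proliferation covariate, and Mau2 to -0.069 with that covariate. Of 7 measured housekeeping genes, 4 had a higher and 3 a lower mean, with a median of 0.0026.

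**Figure D5:**
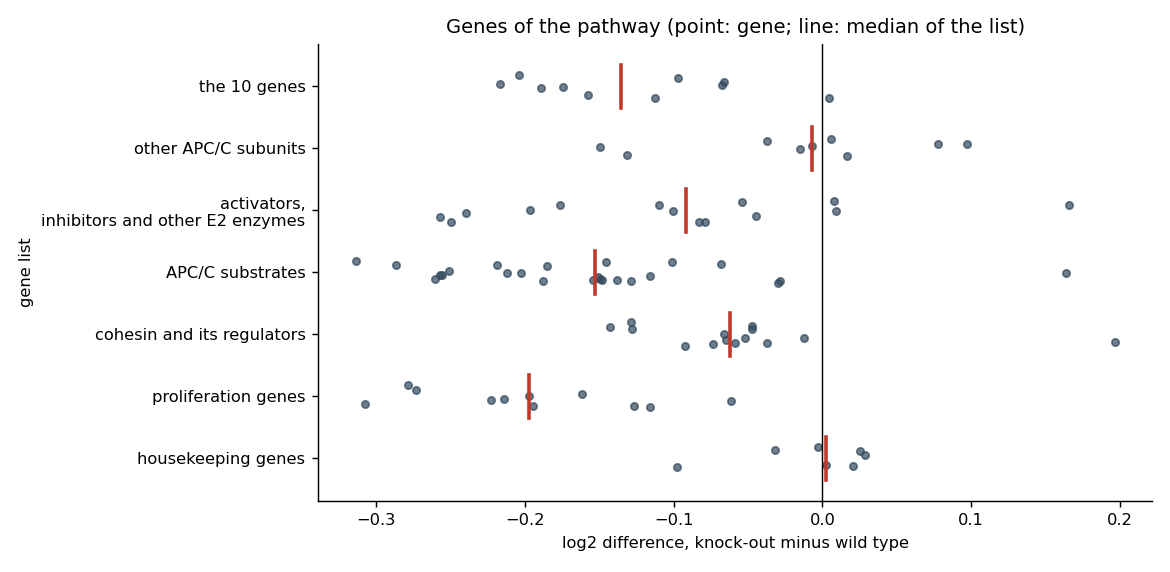
Log2 difference between knock-out and wild-type cells for each gene (points, spread vertically for legibility) of 7 lists, with the list's median as a line. The medians run from -0.20 for proliferation genes to 0.0026 for housekeeping genes, with -0.14 for the 10 genes described here.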

How the data were processed

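The authors deposited 1 log2 value per probe set and array, for 41345 probe sets; the log2 scale was judged from the range of the values, and how probes were summarised and arrays normalised is, in the sources used here, not given. Nothing on signal over background came with them, and the number of arrays limits the precision. Of the probe sets, 23521 had 1 symbol in the platform annotation, and the one with the highest mean per gene was used, which left 22180 genes. Genotypes were compared with lmFit and eBayes in limma 3.58.1 (R 4.3.3), adjusted by Benjamini-Hochberg over all genes at 0.05, and by an exact permutation test, two-sided, over all 252 splits of the 10 arrays into 5 and 5, whose smallest possible p is 0.00794 (0.804 after adjustment over all genes). The script was tested on simulated data. Correlations are Pearson's r over 10 arrays with genotype means removed.

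The 10 genes and the lists were chosen with earlier results of these data known. Named besides them are Zbtb4, the 3 genes of each pathway list with the smallest limma p, Cdc20, Mad2l1, and the 3 genes most like each of the 10, of which some are named by the first alone. Named outside this rule, for their values, are Cdh5, the endothelial marker with the largest difference, and Mettl7a1 and Thg1l, which passed in an alternative. Ccnb1, Ncapg and Krt5 are not analysed here (no single-symbol probe set among those used).

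Alternatives were quantile normalization, median centring, leaving out the dimmest 40% of genes, averaging probe sets, eBayes with trend and robust, array weights, a block for the replicate number, the level of 3 Y-linked genes or of the proliferation genes as a covariate, other thresholds, and leaving out each array.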

Additional observations from a re-analysis of the deposited data

Results flagged for a closer look

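Cdc20 was the one gene named by the rule in which a single array stood apart from the others of its genotype. On wild-type array 5 it was at 8.32, while the other wild-type arrays lay from 8.56 to 8.61. Of 56 groups of 5 arrays examined in this way, 1 had such an array, and chance gives about 1 in 20.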

How the results depend on the processing

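In all 9 other settings with all arrays, and with any array left out, 0 of the 10 genes and 0 genes of the pathway lists passed. Over all genes 1 passed with the proliferation covariate (Mettl7a1, limma adjusted p = 0.0463) and 0 to 1 with single arrays left out (Thg1l without wild-type array 5, adjusted p = 0.0294). The unadjusted threshold of p under 0.05 gave 1326 genes, 2 of them among the 10. The direction turned for Anapc2 under median centring (-0.0081) and with the proliferation covariate (-0.0025), which also turned Fzr1 (0.020), Cdc20 (0.077) and Mad2l1 (0.053); with single arrays left out Anapc2 ran from -0.033 to 0.050 and the median over the 10 genes from -0.19 to -0.094. The arrays carry the same numbers in both genotypes, and whether same-numbered arrays are pairs is not known. The correlation of deviations of same-numbered arrays was over 0.1 in 1 of 5 pairs (-0.045 to 0.17). Of the 10 arrays, 3 correlated best with their own number. Same-numbered arrays also had a like Y-linked level, and these values cannot decide whether the arrays are paired. With the replicate block the median stayed at -0.14, and 1 of the 10 had an unadjusted p under 0.05. With the Y-linked level in the fit the median was -0.13, and 3 of the 10 had an unadjusted p under 0.05. Over the other settings that count ran from 0, as with the proliferation covariate, to 3, as with array weights. Averaging probe sets left the 10 unchanged, since each has 1 probe set.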
